A study of Capra hircus with 2 samples.

Results

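The small RNA libraries of goat mammary gland hold a population of tags, that is distinct read sequences with their read counts, that are longer than microRNAs. They were chosen by length, read count and sequence, as tags of 28 to 33 nt with at least 20 reads summed over both libraries, leaving out any tag whose first 18 nt were those of a tag of 20 to 24 nt with at least 1000 reads in either library. This rule chose 2784 of 659118 distinct tags, and these fell into 1679 groups by their first 18 nt, of which 974 held a single tag. The rule uses read counts, so the number and the abundance of the members are a description. Just inside the limit were 112 members with 20 reads, and just outside it 102 tags with 19 reads that passed the other conditions. The prefix condition left out 255 tags of 28 to 33 nt with at least 20 reads. The least abundant of the tags of 20 to 24 nt that set it had 1001 reads, and the most abundant below it had 998.

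Laoshan dairy goats aged 4 years were sampled by surgery at peak lactation, 90 days after kidding, and at late lactation, 210 days after kidding. The total RNA of the mammary gland of 5 goats was pooled for each stage, and 1 library was sequenced from each pool. Whether the same goats gave both pools was not stated. The libraries had 19044002 clean reads at peak and 7385833 at late lactation, of which 88.5% and 89.0% were 20 to 24 nt long. There was 1 library per stage, so no test across animals was possible. Each ratio is therefore given with a 95% exact (Clopper-Pearson) interval that covers counting error only, and for 0 reads the limit of 3 reads that such a count allows was used. Levels are reads in every 1000000 clean reads (RPM). In pooled tissue, fewer cells of a type and less RNA per cell cannot be told apart.

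Small RNA libraries pick up pieces of many longer RNAs. Transfer RNAs (tRNAs) are cut in or near the anticodon loop into 5′ and 3′ fragments, which are known to accumulate in stressed cells. Box C/D small nucleolar RNAs guide the 2′-O-methylation of ribosomal RNA, and each carries a box C near its 5′ end and a box D, the word CTGA, near its 3′ end, often with a second pair inside. Ribosomal RNA (rRNA) is the bulk of cellular RNA, 7SL RNA is the scaffold of the signal recognition particle that feeds secreted proteins into the endoplasmic reticulum, and Y RNAs bind the Ro60 protein.

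The largest groups belonged to these families, and the most abundant tags of some of them are shown because the values below turn on them. For tags with a box C/D pattern, capitals mark the first TGNTG word within bases 3 to 14, a core of box C, and the CTGA word of box D. In C/D-14 and C/D-20 the TGNTG word begins at base 14 and at base 13 and may not be a box C. In the other groups with both words it began at bases 3 to 8.
C/D-1: accccgTGATGgaactgaggatCTGAgg
C/D-2: ttaacaTGTTGacaagtctaactCTGAag
C/D-3: taacaTGTTGacaagtctaactCTGAag
C/D-4: cgcgggTGATGcgaactggagtCTGAgt
C/D-5: tcactaTGCTGagactcgaatggCTGAca
C/D-8: gctcgTGATGgatttccttttttCTGAca
C/D-12: cactaTGCTGagactcgaatggCTGAca
C/D-13: attTGCTGttgagactcggatatCTGAtt
C/D-14: tcaccaagatgagTGGTGgaaatCTGAtc
C/D-20: caccaagatgagTGGTGgaaatCTGAtc

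For the 5′ parts of tRNAs, capitals mark the conserved bases T8, A14, G18, G19 and A21 in tRNA numbering, all of which lie in or beside the D arm. Both come from a glycine tRNA.
tRNA-5p-1: gcattggTggttcAgtGGtAgaattctc
tRNA-5p-2: gcattgTggttcAgtGGtAgaattctcg

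For the 3′ parts of tRNAs, capitals mark position 58 and the terminal CCA, which is added after transcription.
tRNA-3p-1: ccagggttcaGgtccctgttcgggcgCCA
tRNA-3p-2: cgctggttcgTttccggctcgaaggaCCA
tRNA-3p-3: cagggttcaGgtccctgttcgggcgCCA

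Groups of rRNA, of a Y RNA and of the β-casein mRNA (CSN2) are shown in lower case throughout, with no part marked.
28S-1: tggggggcccaagtccttctgatcgaggcc
28S-2: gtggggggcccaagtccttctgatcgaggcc
28S-5: ccggcggcggcggcgactctggacgcgag
18S-2: acggccctggcggagcgctgagaagacg
18S-3: ctgcagttaaaaagctcgtagttggatc
5.8S-1: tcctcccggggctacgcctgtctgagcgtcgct
5S-1: ccgcctgggaataccgggtgctgtaggctt
Y-1: cttctcactactgcacttgactagtctt
milk-1: aggaatctggaaagcctttcaagcagtg

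The members held 366510 reads at peak and 30149 at late lactation, which were 1.92% and 0.408% of the clean reads. Their level was 19245 RPM at peak and 4082 RPM at late lactation, 4.72-fold lower at late lactation (interval 4.66 to 4.77). The 255 tags left out for their first 18 nt were lower by 5.15-fold (5.02 to 5.29), and the sum of all 92564 tags of 28 to 33 nt by 3.19-fold (3.16 to 3.21). Reads were present in both libraries for 1540 members, 1174 had none at late lactation and 70 had none at peak. Of all 659118 tags, 466727 had reads at peak and 259250 at late lactation. The limit of 20 reads was set on the sum, and 1 read is worth 0.0525 RPM at peak and 0.135 RPM at late lactation. A tag of 1 library could thus pass at a lower level at peak, so these counts are not a result about the stages.

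Of the groups, 1633 reached 1 RPM in at least 1 library, and 1374 of them were at least 2-fold lower at late lactation. Over 6395 groups made in the same way from tags of all lengths, 45.3% were lower by this rule. At least 2-fold higher were 108 member groups, where 22.3% of the groups of all lengths were. The 1374 lower groups include 595 without a late read, and the 108 higher groups include 53 without a peak read. For these, the minimum of reads and the value put for a missing count fixed the outcome. The median log2 ratio, late over peak, was -2.41 over the member groups and -0.78 over the groups of all lengths. Of the groups made from tags of 20 to 24 nt alone, 39.3% were lower and 22.4% higher. Scaled instead to the total of all reads of 28 to 33 nt, which adds 1.67 to every log2 ratio, 717 member groups were lower and 244 higher. Under that scaling Y RNA among the kinds, and 28S-1, C/D-4, C/D-14, C/D-15 and Y-1 among the groups, were higher at late lactation. The shares over groups of all lengths were made with clean reads as the total, so they cannot be set beside the counts of 717 and 244.

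Joining overlapping tags gave 256 stretches, from which 13 kinds of RNA were recognised. The groups were mostly rRNA, in number and in reads. The 1222 rRNA groups held 57.2% of the members' reads at peak and 66.8% at late lactation. The 124 groups with a box C/D pattern held 33.9% and 13.1%, and the 94 groups of tRNA parts 4.88% and 3.97%. The 80 groups that were not recognised held 1.37% and 1.95%.

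**Figure D1:**
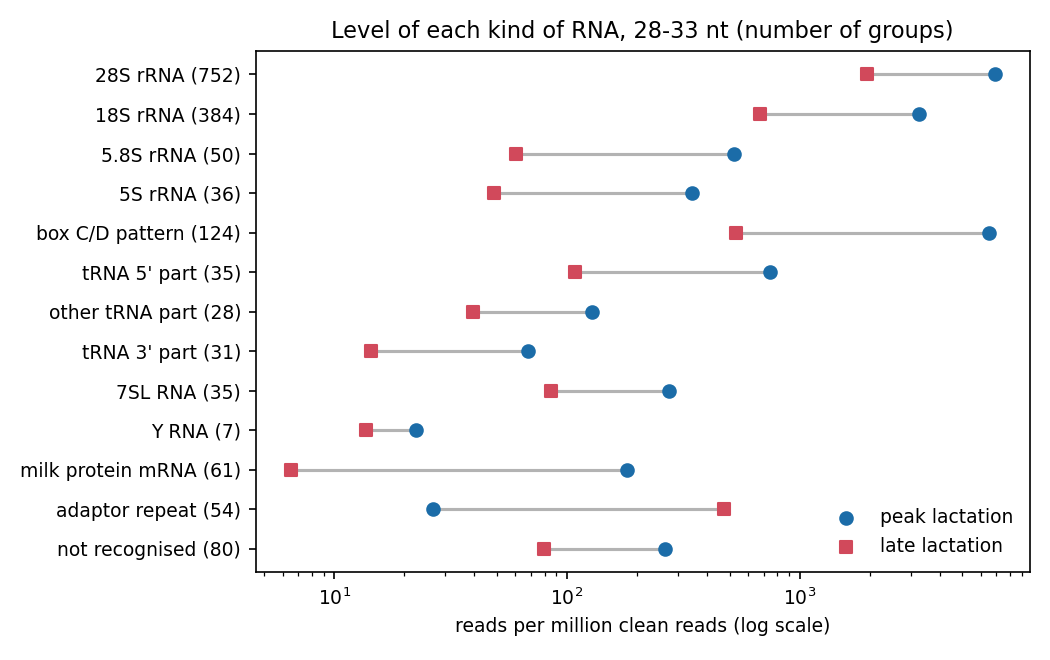
Level of each kind of RNA among the tags of 28 to 33 nt, in RPM on a log scale, with circles for the peak library, squares for the late library and the number of groups in brackets. Each kind but the adaptor repeats was lower at late lactation, from 1.65-fold for Y RNA to 27.99-fold for milk protein mRNA.

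The recognisable kinds differed in how far they fell below their peak level. Tags with a box C/D pattern fell the most among the abundant kinds, from 6530 RPM to 533 RPM, or 12.3-fold (11.9 to 12.6). The 5.8S rRNA fell 8.62-fold (7.84 to 9.50), 5S rRNA 7.11-fold (6.39 to 7.93) and 18S rRNA 4.82-fold (4.68 to 4.96). The 28S rRNA fell 3.54-fold (3.48 to 3.61) and 7SL RNA 3.20-fold (2.95 to 3.48). The intervals of 5.8S and 5S rRNA overlapped, those of 28S rRNA and 7SL RNA met without overlapping, and those of 5S and 18S and of 18S and 28S rRNA lay apart.

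The 5′ parts of tRNAs fell from 743 RPM to 108 RPM, 6.85-fold (6.38 to 7.37), and the 3′ parts from 67.9 RPM to 14.3 RPM, 4.73-fold (3.88 to 5.82). Other tRNA pieces, which met the rule for neither end, fell 3.25-fold (2.88 to 3.68). These were a mixture. They ranged from 4 glycine groups, with 811 and 21 reads, 14.98-fold lower (9.73 to 24.3), to 1 aspartic acid group with 7 and 30 reads. The glycine group tRNA-other-3, with 210 and 0 reads, has the sequence of tRNA-5p-1 with C in place of A14. Y RNA had 429 reads at peak and 101 at late lactation, 1.65-fold lower (1.32 to 2.07). Pieces of the U1 and U6 spliceosomal RNAs, which act in splicing of pre-mRNA, were rare, with 59 and 3 reads in 2 groups.

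Pieces of milk protein mRNAs fell further than any other kind, from 182 RPM to 6.50 RPM, or 27.99-fold (21.1 to 38.0). All 61 groups were at least 2-fold lower, where 84.1% of all member groups that reached 1 RPM were. No late read was present in 43 of the 61 groups and in 595 of all 1679 groups, so that the 2-fold rule fixed their outcome. The share of 84.1% includes those 595 groups. CSN2, the mRNA of β-casein, had 2220 reads at peak and 39 at late lactation, 22.1-fold lower (16.1 to 31.1). CSN1S2, which encodes αs2-casein, had 748 and 3 reads, 96.7-fold lower (32.96 to 470). CSN3, the mRNA of κ-casein, had 372 and 6 reads, 24.1-fold lower (10.9 to 65.9). LALBA, which encodes the α-lactalbumin subunit of lactose synthase, had 100 reads at peak and 0 at late lactation. CSN1S1, which encodes αs1-casein, had 24 and 0. With 3 reads put for each 0, they were 12.9-fold and 3.10-fold lower, with lower interval limits of 10.3 and 2.33. The casein groups came from scattered places in the mRNAs, and the most used start in the largest CSN2 stretch held 14.7% of its reads.

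**Figure D2:**
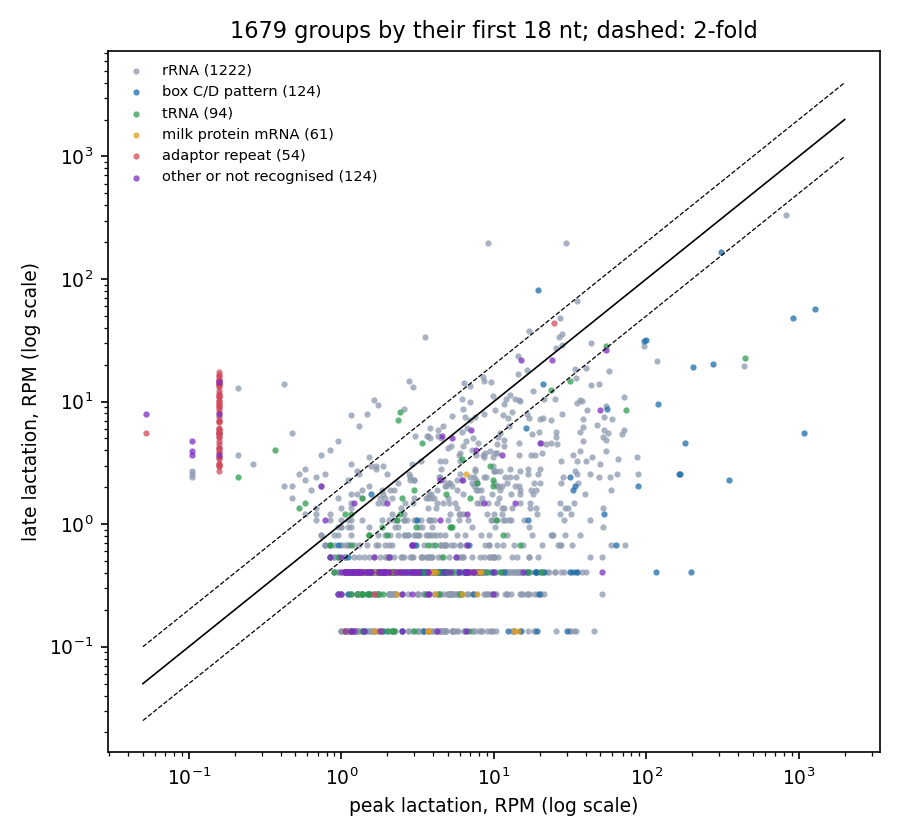
Level of each of the 1679 groups at peak (horizontal) and late lactation (vertical), both in RPM on log scales, coloured by kind, with a count of 0 drawn at 3 reads. Most groups lie below the lower dashed line, which marks a 2-fold difference, and the adaptor repeats form a column at the left edge.

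The kind that rose was not an RNA of the gland. Groups that repeat pieces of the 5′ adaptor of the sequencing library had 503 reads at peak and 3496 at late lactation, 17.9-fold higher in RPM (16.3 to 19.7), and they held 11.6% of the members' reads at late lactation. Of the 108 groups at least 2-fold higher at late lactation, 52 were adaptor repeats. In the deposited filtering log, reads removed as 5′ adaptor contaminants were 0.0494% of the high-quality reads at peak and 14.03% at late lactation. Reads without an insert were 0.628% and 7.73%. Without the adaptor repeats, the other members were 5.33-fold lower at late lactation (5.26 to 5.39).

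The box C/D pattern was recognised by its 3′ end. Of the 1679 most abundant tags, 1 for each group, 122 ended exactly 2 bases after a CTGA word, with 122642 reads at peak and 3858 at late lactation. The word stood at each other distance from 0 to 10 bases before the end in 7 to 16 of these tags. Of those distances, 8 and 10 bases had the most reads, 27459 and 26061 at peak and 3231 and 455 at late lactation. None of the 255 left-out tags had the word at any of these distances, so they give no contrast for the distance of 2 bases. Of all 92564 tags of 28 to 33 nt, 2.36% had it 2 bases from the end, against 7.27% of the groups. The pattern was chosen after these sequences were seen.

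**Figure D3:**
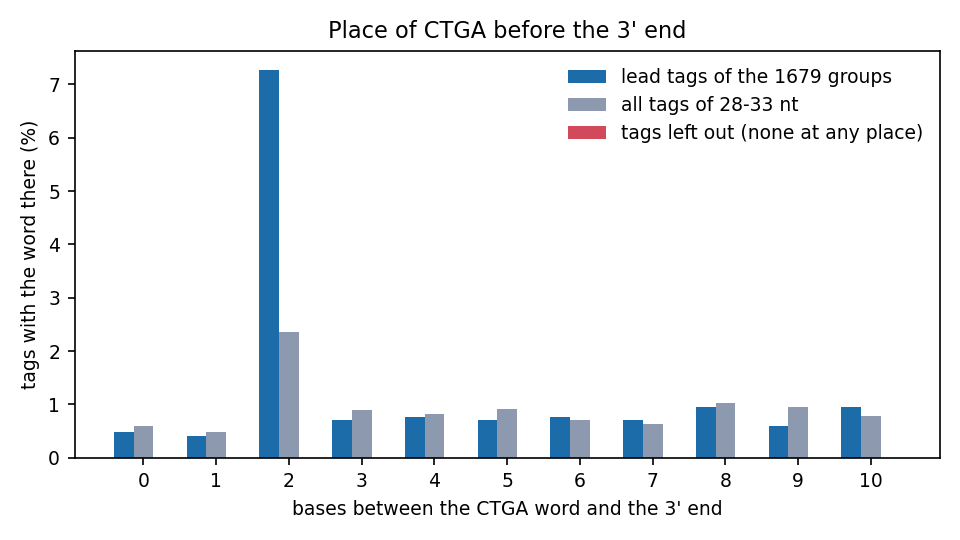
Share of tags, in percent, with the word CTGA at each distance in bases before their 3′ end, for the most abundant tag of each group, for all tags of 28 to 33 nt and for the left-out tags. The distance of 2 bases stands out in the groups, at 7.27%, and the other distances lie below 1% there.

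A TGNTG word within bases 3 to 14 was present in 73 of those 122 tags (59.8%) and in 136 of the other 1557 (8.73%). All 92564 tags of 28 to 33 nt held it in 8.27%. It began at base 6 in 24 and at base 7 in 31 of the 73, so that these tags ran from a few bases before a box C to 2 bases after the next box D. In the 23 box C/D stretches with at least 500 reads, a median of 93.0% of the reads shared 1 start and 99.4% shared 1 end. These stretches had a median length of 30 nt, which leaves room for few starts, and their 3′ end was used to recognise them.

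The largest box C/D group, C/D-1, had 24373 reads at peak and 420 at late lactation, 1280 RPM and 56.9 RPM. C/D-2 had 20524 and 41 reads, and its ratio was 0.00515 (0.00370 to 0.00699). C/D-3 begins 1 base later in the same RNA and had 17504 and 358 reads, with a ratio of 0.0527 (0.0474 to 0.0586), 10.2 times that of C/D-2. The intervals did not overlap.

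In 22 pairs of groups that begin 1 base apart, the later start had the higher ratio in 15. It did so in 10 of the 11 pairs whose most abundant tag was 1 nt shorter in the later group, and in 5 of the 11 pairs with equal lengths. C/D-5 and C/D-12 had 6599 and 2287 reads at peak and 17 and 71 at late lactation, so that the later start had 12.1 times the ratio of the earlier one. C/D-13, with 2210 and 3 reads, and C/D-19, with 1002 and 9, differed 6.62-fold. C/D-14 fell from 1900 to 237 reads while C/D-20 went from 369 to 602, which is 4.21-fold higher in RPM at late lactation (3.69 to 4.80), and their ratios differed 13.1-fold. In each of these pairs the most abundant tag had 29 nt in the earlier and 28 nt in the later group. C/D-4, with 5848 and 1226 reads, and C/D-36, which begins 1 base later and had 321 and 8, both had tags of 28 nt, and there the later start had 0.119 times the ratio of the earlier one.

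C/D-8 was nearly absent at late lactation, with 3725 and 3 reads and a ratio of 0.00208 (0.000428 to 0.00607). At the other end C/D-4 was 1.85-fold lower at late lactation (1.74 to 1.97). No snoRNA name is given to these groups, since no snoRNA sequences were used here.

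Ribosomal groups were tiled along their RNA. The 752 groups of 28S rRNA came from 23 stretches and the 384 of 18S rRNA from 11. Of those that reached 1 RPM, 621 of 728 and 327 of 374 were at least 2-fold lower. These shares, 85.3% and 87.4%, were near the 84.1% of all member groups. They include 228 groups of 28S and 148 of 18S rRNA without a late read, whose outcome was fixed. The largest, 28S-1, had 15674 reads at peak and 2453 at late lactation, a ratio of 0.404 (0.387 to 0.421). 28S-2 begins 1 base earlier and had 8274 and 145 reads, a ratio of 0.0452 (0.0381 to 0.0533), so that the ratio of 28S-1 was 8.93 times that of 28S-2.

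Among groups with at least 500 reads, the 2 highest ratios were also ribosomal. 18S-2 had 175 reads at peak and 1449 at late lactation, 21.4-fold higher (18.2 to 25.1), and 1439 of its late reads came from 1 tag of 28 nt. 28S-5 had 565 and 1441 reads, 6.58-fold higher (5.96 to 7.26). C/D-20 followed, then 28S-49 with 326 and 280 reads, 2.21-fold higher (1.88 to 2.61), and 28S-10 with 674 and 492 reads, 1.88-fold higher (1.67 to 2.12). The 5 lowest ratios were those of C/D-8 and C/D-13, given above, of 18S-16 with 865 and 1 reads, of 18S-22 with 656 and 1 and of 28S-47 with 635 and 1.

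18S-3 had 1388 and 5 reads, 5S-1 had 1670 and 19, and 5.8S-1, from the 3′ part of that RNA, had 983 and 4. Y-1, the 3′ part of Y1 RNA, had 136 and 43 reads, and its interval of 0.565 to 1.16 included 1. Y-2, the 5′ part of Y4 RNA, had 128 and 9 reads, and Y-3, its 3′ part, 87 and 39.

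The base composition moved with the ratio. Over the 627 groups with at least 100 reads, the share of G and C in the most abundant tag and the log2 ratio had a Pearson r of 0.45 and a Spearman rho of 0.53, given as a description, since the groups share the same pair of libraries and often overlap. Within 28S rRNA rho was 0.53 (284 groups), within 18S rRNA 0.59 (166 groups), and within box C/D groups 0.16 (52 groups), while within 5S rRNA it was -0.48 (18 groups). The rRNA groups of 35 to 45% G and C were 26.5-fold lower in the median, those of 55 to 65% 7.35-fold and those of 75% or more 2.32-fold. Box C/D groups had a median of 41.4% G and C and 28S groups 58.1%. The part of base composition in the difference between these kinds was not tested.

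Length moved with the ratio too, and this could be measured in tags outside the rule. Tags of 18 to 24 nt with the first 18 nt of the groups had 28596 RPM at peak and 27317 RPM at late lactation, a ratio of 0.955 (0.9504 to 0.960). Those of 25 to 27 nt had a ratio of 0.556 (0.552 to 0.559), and those of 28 to 33 nt 0.226 (0.223 to 0.228). The first of these sums rests mostly on 28S rRNA starts, with 316913 of the 544588 reads at peak, and the starts were chosen by their long tags. In the second, 27-nt tags of box C/D starts gave 182543 of the 527485 reads at peak.

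The kinds followed this order to different extents. For 18S rRNA the ratios in the 3 length ranges were 1.12, 0.741 and 0.209. For 5S rRNA they were 1.17, 1.58 and 0.149, and by single lengths their log2 ratio was 1.14 at 25 nt, -0.15 at 27 nt, -1.73 at 28 nt and -4.57 at 30 nt. For box C/D starts they were 0.427, 0.229 and 0.0825. For the 5′ parts of tRNAs they were 1.24, 0.231 and 0.166, and for milk protein mRNA 0.398, 0.351 and 0.0375. Milk protein mRNA and box C/D starts were thus lower at late lactation in every length range. So were 28S rRNA, at 0.893, 0.779 and 0.284, 5.8S rRNA, at 0.623, 0.313 and 0.125, and 7SL RNA, at 0.747, 0.340 and 0.303. The groups that were not recognised were also lower in each range, and tRNA 5′ parts in the 2 longer ones only. In the shortest range of box C/D starts, the 20-nt tags of C/D-1 alone gave 958 of 2564 reads at peak and 116 of 425 at late lactation. In the middle range, 27-nt tags gave 182543 of 190614 reads at peak and 15586 of 16915 at late lactation. No box C/D group among the 20 largest groups held more than 505 of these 27-nt reads at peak.

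**Figure D4:**
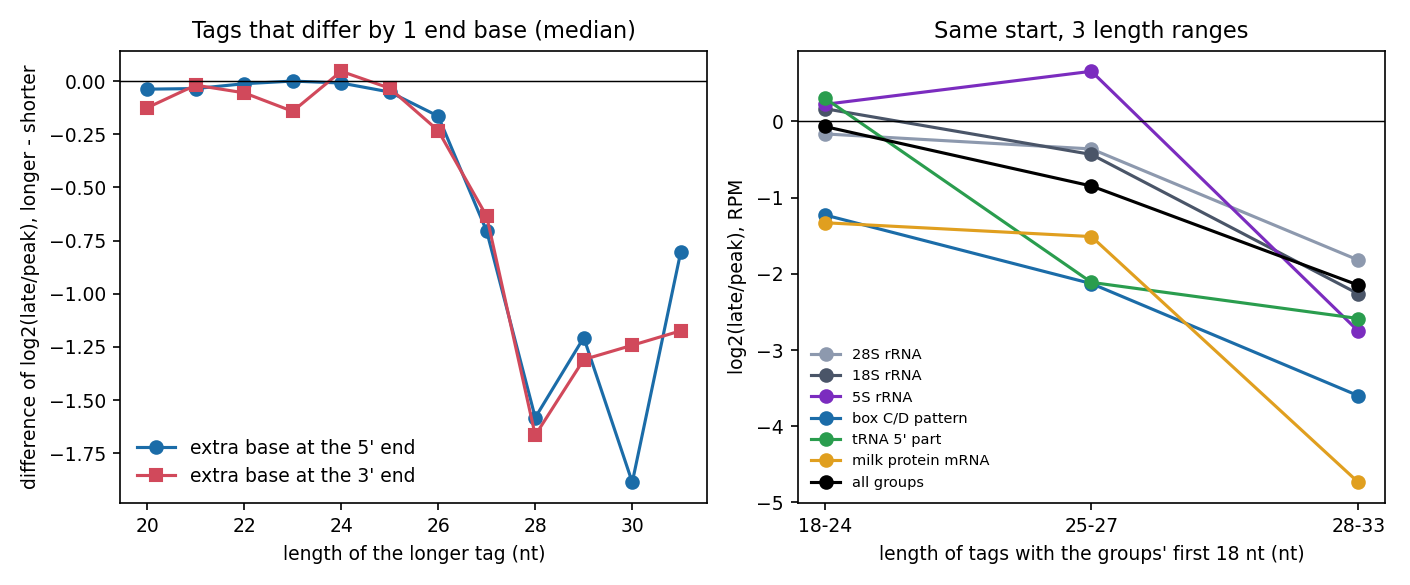
Left, the median difference of the log2 ratio (late over peak) between tags that differ by 1 base at the 5′ end (circles) or the 3′ end (squares), against the length of the longer tag in nt, where at least 10 pairs had 100 reads in each tag. Right, the log2 ratio of tags with the groups' first 18 nt in 3 length ranges. The left curves stay near 0 up to 25 nt, reach -1.58 and -1.67 at 28 nt and remain below 0 up to 31 nt, and the lines on the right end between -1.82 for 28S rRNA and -4.74 for milk protein mRNA.

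When tags were compared that differ by a single end base, the median change of the ratio was a fall at each length from 27 to 31 nt. For pairs of 21 and 22 nt with at least 100 reads each, an extra base at the 5′ end changed the log2 ratio by a median of -0.01 (471 pairs). For 26 and 27 nt the median was -0.71 (314 pairs) and for 27 and 28 nt -1.58, with the longer tag lower in 245 of 287 pairs. For 28 and 29 nt it was -1.21, lower in 121 of 165, and for 29 and 30 nt -1.89, lower in 36 of 47. With the extra base at the 3′ end the medians were -0.06 at 22 nt (731 pairs), -1.67 at 28 nt (lower in 224 of 265), -1.31 at 29 nt (113 of 144) and -1.24 at 30 nt (30 of 41). At 32 nt only 5 pairs were left, with a median of 0.25 and the longer tag lower in 2. The pairs overlap each other, so they are not independent. Summed by length, the members did not fall steadily. They were 4.23-fold lower at 28 nt, 7.07-fold at 29 nt, 3.53-fold at 30 nt and 3.18-fold at 33 nt.

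Most members lie in the range of lengths where the single-base steps fell, with 2503 of the 2784 at 28 to 30 nt. Per the methods of the study, the fraction of 18 to 30 nt was cut from a gel before adaptors were joined, once for each pool. With 1 library per stage, the stage and the library cannot be told apart, and the ratios of the members are those of these libraries.

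The rule for 5′ parts of tRNAs asked for T8, A14, GG at 18 and 19, A21 and at least 3 of 4 pairs of the D stem. It held in 40 groups with 15267 reads at peak and 808 at late lactation, 4.17% (4.10 to 4.23) and 2.68% (2.50 to 2.87) of the members' reads, and their level fell 7.33-fold (6.83 to 7.88). The 1639 groups without the pattern fell 4.64-fold (4.59 to 4.70). The order of the 2 shares turned for tags of 31 to 33 nt alone, at 6.21% and 13.1%, and with tags of 20 to 24 nt of at least 100 reads setting the prefix condition, at 2.76% and 3.19%. The pattern is short. It was met by 2.38% of the 1679 groups, by 2.50% of all 92564 tags of 28 to 33 nt and by 13 of the 255 left-out tags (5.10%). The number of groups with the pattern was thus near the share over all tags of that length. Of the 40 groups, 5 lay in other RNAs by their joined sequence, namely 1 in 18S rRNA, 1 in 28S rRNA, 1 in a milk protein mRNA and 2 in box C/D groups. The remaining 35 are the 5′ parts described here. For 13 of them, with 1204 reads at peak and 81 at late lactation, no amino acid was named by eye.

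Glycine tRNA gave most of their reads at peak lactation, and glutamic acid tRNA had the most at late lactation. The 7 glycine groups had 10595 reads at peak and 242 at late lactation, 16.98-fold lower (14.9 to 19.4). The 10 groups of glutamic acid tRNA had 1925 and 398 reads, 1.88-fold lower (1.68 to 2.09), and the 4 of lysine tRNA 386 and 80, 1.87-fold lower (1.47 to 2.41). The interval of glycine did not overlap the other intervals, and that of lysine enclosed that of glutamic acid. tRNA-5p-1 alone had 8487 and 168 reads.

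The anticodon, positions 34 to 36, was reached by the joined sequence for 18 of the 35 groups. tRNA-5p-1 read GCC, an anticodon that 30 goat tRNA genes carry in the RefSeq annotation of ARS1.2. Other groups read GUG of histidine, UUU and CUU of lysine and CUG of glutamine. The histidine group tRNA-5p-5 had 388 reads at peak and 0 at late lactation. With the limit for a count of 0 put in, it was 50.2-fold lower, with a lower interval limit of 40.6. Tags of 21 to 27 nt with its first 18 nt did have late reads, so the absence holds for the longer tags only. Since tRNA genes share their 5′ ends, tags that stop before the anticodon may come from any of several genes.

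The glycine tRNA came with a partner group with 1 base less before position 8. tRNA-5p-2, the partner of tRNA-5p-1, had 1409 and 63 reads, a ratio of 0.115 (0.0881 to 0.148) against 0.0510 (0.0436 to 0.0595). The intervals did not overlap.

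Among the members, most reads at peak lactation ended before the anticodon loop. The most abundant tag ended at position 29 in 12 of the 35 groups, in the anticodon stem, and at position 33, the last base before the anticodon, in 1. Of the reads at peak lactation, 51.2% ended at position 29 and 26.2% at position 30, while 15.4% ended at position 32 or later. At late lactation 10.7% ended at 29, 56.3% at 32 and 61.1% at 32 or later. These shares hold within 28 to 33 nt only. Over tags of all lengths with the same first 18 nt, 9.35% of 29690 reads at peak and 10.2% of 5338 reads at late lactation ended at position 32 or later.

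Within the glycine tRNA the ends differed as well. With tags of all lengths counted, 51.0% of the tRNA-5p-1 reads at peak lactation ended at position 29 (5705 reads), and 9.75% did at late lactation (62 reads). Late reads of tRNA-5p-1 were divided more evenly among the ends, with 17.5% at position 19, 14.6% at 22 and 11.2% at 32, where 1.84% of the peak reads ended.

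The 31 groups of 3′ parts of tRNAs had 1293 and 106 reads, and each came from the T arm to the terminal CCA. Position 58 of the T loop, an adenosine in most tRNAs that is known to carry a methyl group in many of them, was read as several bases in otherwise identical ends. This was counted over all tags of 28 to 33 nt that met the rule for a 3′ end, members or not. In 6 families of ends with at least 100 reads, 36.8% of the 1783 reads had a base other than the main base of their family there. At the 21 other positions that the rule did not fix, the median was 0.168% and the highest share 1.35%, at position 59.

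**Figure D5:**
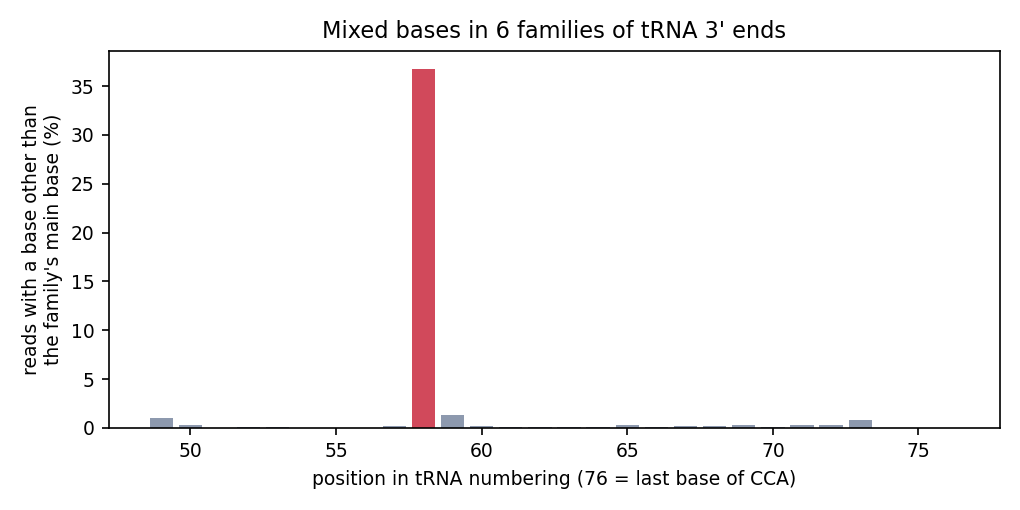
Share of reads, in percent, with a base other than the main base of their family, at each position from 49 to 76 in tRNA numbering, summed over 6 families of tRNA 3′ ends and both libraries. Position 58 stands at 36.8% and no other position exceeds 1.35%, where positions 54 to 56 and 74 to 76 are fixed by the rule.

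Reads that were not A at position 58 made up 73.1% of 1677 reads at peak (70.8 to 75.2) and 51.9% of 106 at late lactation (42.0 to 61.7). In the largest family, which includes tRNA-3p-1 and tRNA-3p-3, 70 reads at peak had A, 352 had G, 114 had T and 4 had C, and at late lactation 9 had A, 27 had G and 7 had T. The family of tRNA-3p-2 had A in 43 and T in 219 of its 263 reads at peak, and 14 and 13 of 27 at late lactation. A further family had A in 206 of 257 reads at peak and in all 13 at late lactation, so the mixture differed between tRNAs. The prefix groups of the 3′ parts divide such an end by its base at position 58, since that base lies within their first 18 nt.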

How the data were processed

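Per the labels and the study's methods, small RNA of 18 to 30 nt from pooled total RNA was ligated to adaptors, amplified and sequenced on an Illumina 1G Genome Analyzer. The authors removed low-quality reads, adaptors and reads under 18 nt, and deposited for each library the count of reads of each distinct clean tag, not normalized. No version of the tools behind this filtering was found.

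Counts were joined by sequence and divided by the clean reads. Members overlapping by at least 20 nt without a mismatch were joined and lengthened with deposited tags of all lengths. Of the 256 stretches, 119 were named by eye from knowledge of tRNA, rRNA, 7SL, U, Y, milk protein and adaptor sequences, with no reference sequence, so a name may be wrong. The others were called box C/D where the most abundant tag ended in CTGA and 2 bases. Named groups were the 20 with the most reads, the 5 highest and 5 lowest ratios among those with at least 500 reads, and the 3 largest of each kind. A few of these groups are not reported here. Neighbours and tRNA-5p-5 were added once values were known. The members and lists were chosen with earlier results of these data known. Patterns and ratios were tested on simulated data. Python 3.11.15, scipy 1.17.1, edgeR 4.0.16 and DESeq2 1.42.0 were used, the last 2 for scaling factors only.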

Additional observations from a re-analysis of the deposited data

How the results depend on the processing

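No paired analysis was possible because there was 1 library per stage, from pooled goats, and the labels give no replicate numbers. The log2 ratio of all members was -2.24. It became -2.15 with totals without the 10 most abundant tags, -0.57 with totals of reads of 28 to 33 nt, -2.26 with median-ratio factors, -2.12 and -2.46 at minima of 5 and 100 reads, -2.07 for 31 to 33 nt, -2.21 with a miRNA limit of 100 reads, -2.26 with no tag left out and -2.41 without adaptor repeats, the last chosen after seeing the data. Under the same settings the ratio of groups without a D-arm pattern, -2.21, became -2.13, -0.54, -2.24, -2.11, -2.43 and -2.18, in that order up to 31 to 33 nt, then -2.24 with no tag left out and -2.40 without adaptor repeats. With a D-arm pattern it was -2.87 and became -1.20 with totals of 28 to 33 nt, -2.56 and -3.10 at 5 and 100 reads, -3.59 for 28 to 30 nt, -0.99 for 31 to 33 nt, -1.998 with the miRNA limit of 100 reads and -3.003 with no tag left out.

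The share of reads with a D-arm pattern at peak was 4.17% and became 4.09% and 4.78% at 5 and 100 reads, 3.97% for 28 to 30 nt, 6.21% for 31 to 33 nt, 2.76% with the miRNA limit of 100 reads, 3.86% with no tag left out, 4.04% with all 4 D-stem pairs, 6.799% with none required and 4.01% in the thinned peak library. At late lactation it was 2.68% and became 3.02% and 3.07% at 5 and 100 reads, 1.57% for 28 to 30 nt, 13.1% for 31 to 33 nt, 3.19% with the miRNA limit of 100 reads, 2.31% with no tag left out, 4.27% with no D-stem pair required and 3.03% without adaptor repeats. It was higher at late than at peak lactation for 31 to 33 nt and with the miRNA limit of 100 reads.

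Groups at least 2-fold lower were 1374 and became 717 with totals of 28 to 33 nt, 395 at 100 reads, 179 for 31 to 33 nt, 295 at 10 RPM and 784.2 on average in 10 thinnings. Groups at least 2-fold higher were 108 and became 244 with totals of 28 to 33 nt, 216 at 5 reads, 19 at 100 reads, 24 for 31 to 33 nt, 30 at 10 RPM and 56 without adaptor repeats. Fewer tags enter at the stricter limits. Against 1679 groups in the main setting, there were 4248 at 5 reads, 456 at 100 reads, 220 for 31 to 33 nt and 1001 on average in the thinnings.

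With totals of 28 to 33 nt, which add 1.67 to each log2 ratio, the sign turned for Y RNA (0.95), 28S-1 (0.36), C/D-14 (0.035), C/D-15 (0.027), C/D-4 (0.78), Y-1 (1.38) and tRNA-other-1 (0.73). It turned for adaptor-1 at 100 reads (-0.52), and for 31 to 33 nt in 28S-10 (-2.003). TMM factors and totals of 18 to 30 nt left the 68 ratios of kinds and named groups within their counting intervals. Depth differed, so 1 read is worth 0.0525 RPM at peak and 0.135 RPM at late lactation.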

Other observations

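The groups that were not recognised held 5014 reads at peak and 588 at late lactation, 3.31-fold lower (3.04 to 3.61). Of their 77 groups that reached 1 RPM, 68 were at least 2-fold lower and 7 at least 2-fold higher. The share that was lower, 88.3%, was near the 84.1% of all member groups, and it includes 50 groups without a late read, whose outcome was fixed. T was the first base of 32.5% of them, against 37.9% of the box C/D groups and 20.4% of the 28S groups.

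Some members were rare copies of an abundant member with 1 base changed. Among members of the same length as 1 of the 30 tags with at least 1000 reads, 50 differed from it by 1 base and had at least 50 times fewer reads. They had 2306 reads at peak and 45 at late lactation. The change was A to C in 24 of them and C to A in 10.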
